A study of Mus musculus with 8 samples.

Results

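Introns far from start sites were described here in the tumor DNA of mice treated with C29, 5-azadC or both. A cytosine belonged to them when it lay on an autosome, had at least 10 reads in all 8 libraries, fell inside a protein-coding gene of the GENCODE M21 annotation but in no annotated exon, and was more than 4000 bp from every annotated start site. Of 555155 cytosines with that coverage, 57467 met the rule. The units were 1000 bp tiles with at least 3 such cytosines, which left 7772 intronic tiles with 34229 cytosines, of 52043 tiles with 468820 cytosines in all. The intronic tiles lay in 3433 genes, of which 1882 had 1 tile, and 190 tiles lay in more than 1 coding gene. NIC-5231, a mouse mammary tumor cell line, was grown in the mammary fat pads of NSG mice, which were 5 to 7 weeks old at injection. After tumors had become palpable, groups of 5 mice received, by intraperitoneal injection every 2 days, a vehicle of saline, PEG and DMSO, 10 mg of C29 per kg, 1 mg of 5-azadC per kg, or these doses of C29 and 5-azadC together. Every group had 2 libraries, each from the pooled DNA of 2 mice, and the sources used here do not say whether the pools of a group shared an animal, so p-values measure only the spread between these libraries. The tumors derive from 1 cell line in hosts that lack a working adaptive immune system, and reads from tumor and host cells, both mouse, cannot be told apart.

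Most CpGs inside the introns of mammalian genes carry a methyl group, in contrast to CpG-dense start sites, which are mostly free of it. DNMT1 copies the mark onto the new strand at each replication, DNMT3A and DNMT3B add it to unmarked sites, and the TET enzymes oxidise it. 5-azadC, or decitabine, is a cytidine analog that is built into DNA and traps the DNMT enzymes there, so that the mark is diluted as cells divide. C29 is an inhibitor of ERRα, a nuclear receptor that drives genes of mitochondrial metabolism. Introns also hold enhancers, alternative promoters and repeats, which differ in their methylation.

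RRBS reads the CpGs near restriction sites after bisulfite conversion, and its values are methylated reads as a percentage of all reads at a cytosine. Summed over the cytosines of every chromosome in the files, not only the autosomes, the libraries held 51305736 to 81174026 reads. A read is counted there at each cytosine it covers. The median was 21 to 30 reads per cytosine. An unmethylated control sequence in the files read 0.216 to 0.329% and a methylated one 97.5 to 98.3%. Reads of a tile are summed over its cytosines, so that a read covering several CpGs is counted at each of them. In this count the median intronic tile had 160 to 249 reads in a library and the lowest 30. No molecular identifiers are named in the sources used here, so limits from read numbers cover counting error only. Marker promoters, the 1000 bp before coding start sites, had a median methylation in vehicle of 8.32% over 4 measured epithelial genes, 66.7% over 5 fibroblast genes, 45.2% over 2 endothelial genes and 80.7% over 2 leukocyte genes, which describes DNA and not RNA. Within a list the promoters differed, from 0.823 to 71.9% in epithelial genes (3 of 4 under 20%), 0 to 100% in fibroblast genes (2 of 5), 18.5 to 71.9% in endothelial genes (1 of 2) and 67.3 to 94.0% in leukocyte genes (none), so the promoters do not identify the cells, and the part of cell makeup in the results was not tested.

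The sequences below show what the measured introns look like, with each measured CpG in capitals, written 5′ to 3′ on the plus strand of GRCm38. The first 3 are from tiles with large differences between libraries with and without 5-azadC, Lmx1b and Bcl11b are from tiles higher with 5-azadC, Acacb and Chit1 are from tiles that differed with C29, and the last 3 are from tiles that stayed unmethylated or highly methylated in vehicle. They lie at chr10:60826377-60826456 for Unc5b, chr11:8626739-8626829 for Tns3, chr5:112281093-112281165 for Tpst2, chr2:33575535-33575752 for Lmx1b, chr12:107928387-107928547 for Bcl11b, chr5:114152054-114152140 for Acacb, chr1:134115544-134115598 for Chit1, chr1:119048016-119048259 for Gli2, chr5:72933103-72933276 for Slain2 and chr2:164056742-164056847 for Tomm34. Each is inside an intron of the coding gene it is named for. CCGG, the cut site of the enzyme MspI, is seen around many of the measured CpGs.
Unc5b: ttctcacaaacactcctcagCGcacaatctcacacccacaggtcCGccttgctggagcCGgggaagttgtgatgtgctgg
Tns3: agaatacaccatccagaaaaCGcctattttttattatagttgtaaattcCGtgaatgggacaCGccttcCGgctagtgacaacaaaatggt
Tpst2: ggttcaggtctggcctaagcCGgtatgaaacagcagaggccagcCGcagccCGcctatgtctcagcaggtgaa
Lmx1b: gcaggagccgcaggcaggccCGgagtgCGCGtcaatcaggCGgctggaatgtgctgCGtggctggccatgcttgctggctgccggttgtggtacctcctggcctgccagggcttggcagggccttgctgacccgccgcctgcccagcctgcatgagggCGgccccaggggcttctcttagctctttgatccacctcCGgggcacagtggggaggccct
Bcl11b: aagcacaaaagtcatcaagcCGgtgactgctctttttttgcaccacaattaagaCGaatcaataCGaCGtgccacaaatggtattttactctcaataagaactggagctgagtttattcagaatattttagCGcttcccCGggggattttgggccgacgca
Acacb: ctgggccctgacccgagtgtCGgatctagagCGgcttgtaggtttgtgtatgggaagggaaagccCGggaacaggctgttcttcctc
Chit1: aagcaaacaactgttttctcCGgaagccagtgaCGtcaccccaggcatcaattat
Gli2: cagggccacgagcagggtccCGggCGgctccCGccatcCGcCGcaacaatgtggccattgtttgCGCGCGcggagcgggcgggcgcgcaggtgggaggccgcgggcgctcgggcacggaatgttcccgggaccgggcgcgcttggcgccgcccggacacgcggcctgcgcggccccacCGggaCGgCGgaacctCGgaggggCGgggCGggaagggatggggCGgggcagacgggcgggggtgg
Slain2: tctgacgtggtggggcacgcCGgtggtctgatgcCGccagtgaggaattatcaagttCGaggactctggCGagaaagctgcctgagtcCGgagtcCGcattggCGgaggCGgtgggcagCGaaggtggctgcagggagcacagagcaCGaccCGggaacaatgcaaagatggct
Tomm34: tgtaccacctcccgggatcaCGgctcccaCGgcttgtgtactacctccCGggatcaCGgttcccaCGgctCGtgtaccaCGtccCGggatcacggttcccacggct

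In vehicle-treated tumors the introns were highly methylated, with a median tile level of 79.6%. Of the intronic tiles, 20.6% (1598 tiles) stood at 95% or more, 29% between 80 and 95%, 20.3% between 60 and 80%, and 12.8% between 40 and 60%. Only 3.2% (249 tiles) were under 5%. Coding exons far from start sites had a median of 89.0%, intergenic tiles 73.2%, and tiles within 4000 bp of a start site 8.63%, of which 47% were under 5%. An intronic tile held a median of 16 CpGs in the reference, against 21 for exons, 17 for intergenic tiles and 38 near start sites, and a median of 15.2% of its bases were repeats, against 22.3% in intergenic tiles. The median distance to the nearest start site was 15406 bp. The 185 tiles under 5% in both vehicle libraries had a median of 21 CpGs and 51.9% GC, while the 1080 tiles over 95% in both had 16 CpGs and 46.6% GC. A tile was measured coarsely: the libraries of 1 group differed by a median of 7.60 points per tile in vehicle, 8.34 with C29, 10.2 with 5-azadC and 11.2 with both, and 3345 tiles held exactly 3 cytosines.

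**Figure D1:**
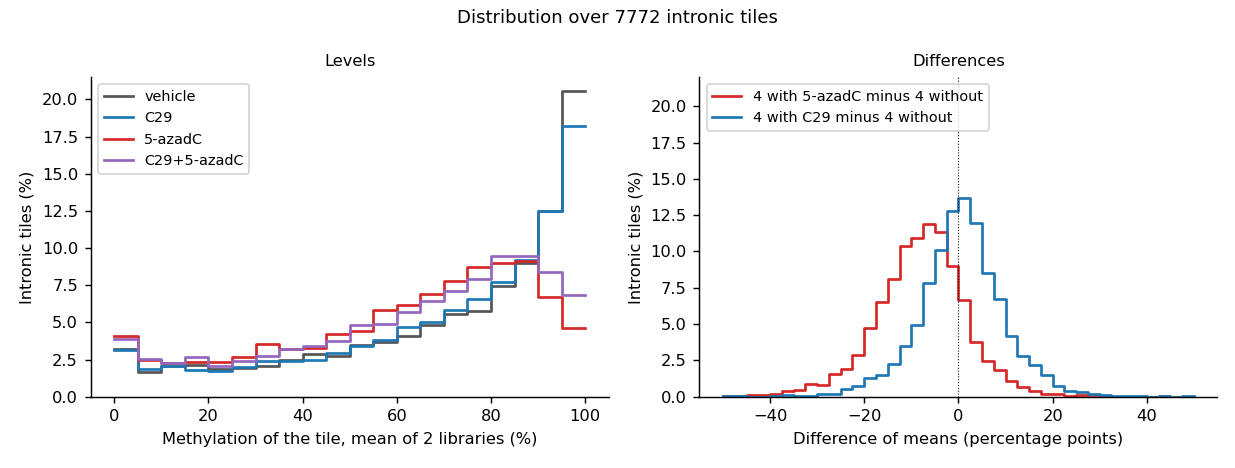
Left, the share of the 7772 intronic tiles (y axis, percent) by methylation level (x axis, percent, bins of 5 points, mean of the 2 libraries of a group); right, their share by the difference of means with and without each drug (x axis, percentage points, bins of 2.5 points). The bin at 95% or more holds 20.6% of tiles in vehicle and 18.2% with C29, but 4.66% with 5-azadC and 6.87% with both, and the 5-azadC differences centre below 0 with a median of -7.53.

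The first question was whether 5-azadC lowered methylation in these introns. The intronic tiles averaged 70.1 and 69.9% in vehicle, 70.1 and 68.8% with C29, 60.5 and 61.2% with 5-azadC, and 62.4 and 62.8% with both drugs. The 4 libraries with 5-azadC all lay below the 4 without it, and no library fell between 62.8 and 68.8%. In bulk DNA a different mix of cells and a different level per cell cannot be told apart. The means were 61.7% ± 1.03 (SD, n = 4) with 5-azadC and 69.7% ± 0.608 (SD, n = 4) without it, so that intronic methylation fell by 8.02 points, or 11.5% of its level. The two-sided exact permutation test of 4 against 4 libraries gave p = 0.0286, the smallest it can give, and 0.0364 after Benjamini-Hochberg adjustment over 28 such tests. Per tile, the median difference was -7.53 points, with an interquartile range from -13.7 to -2.12. It was below 0 in 6401 tiles (82.4%), against 69.8% of all 52043 tiles, whose median was -2.61 points.

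For C29, the same test compared sets that each mixed libraries with and without 5-azadC, and it did not separate them. Mean intronic methylation was 66.0% ± 4.02 (SD, n = 4) with C29 and 65.4% ± 5.28 (SD, n = 4) without it, a difference of 0.581 points (exact permutation test, p = 0.657, adjusted p = 0.681). Both ranges overlapped almost completely, since each set held libraries with and without 5-azadC. The SDs thus reflect mainly the 5-azadC difference, beside an SD between replicates of 0.532 points, so this test cannot resolve a small C29 difference. The value also joins differences of opposite sign, -0.538 points for C29 against vehicle and 1.701 points for the combination against 5-azadC alone. The median tile difference for C29 was 0.58 points and 46.3% of tiles were below 0, against 47% of all tiles.

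The pairwise comparisons of groups rested on 2 libraries each, where the exact permutation test cannot give p under 0.333, and the comparisons with vehicle share the vehicle libraries. C29 stood at 69.5% ± 0.884 (SD, n = 2) against 69.99% ± 0.193 (SD, n = 2) for vehicle, a difference of -0.538 points (exact permutation p = 0.667). The C29 libraries lay on either side of the lower vehicle library. 5-azadC alone stood at 60.9% ± 0.485 (SD, n = 2), 9.14 points under vehicle (exact permutation p = 0.333). The combination stood at 62.6% ± 0.282 (SD, n = 2), 7.43 points under vehicle and 6.90 points under C29 alone (exact permutation p = 0.333 for each). It was 1.701 points above 5-azadC alone, with no overlap between the 2 and 2 libraries (exact permutation p = 0.333). The combination therefore stood 2.24 points above the sum of the single-drug differences, with a standard error of 0.753 points from the SD between replicates (0.532 points, 4 residual degrees of freedom), and that interaction was not tested.

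**Figure D2:**
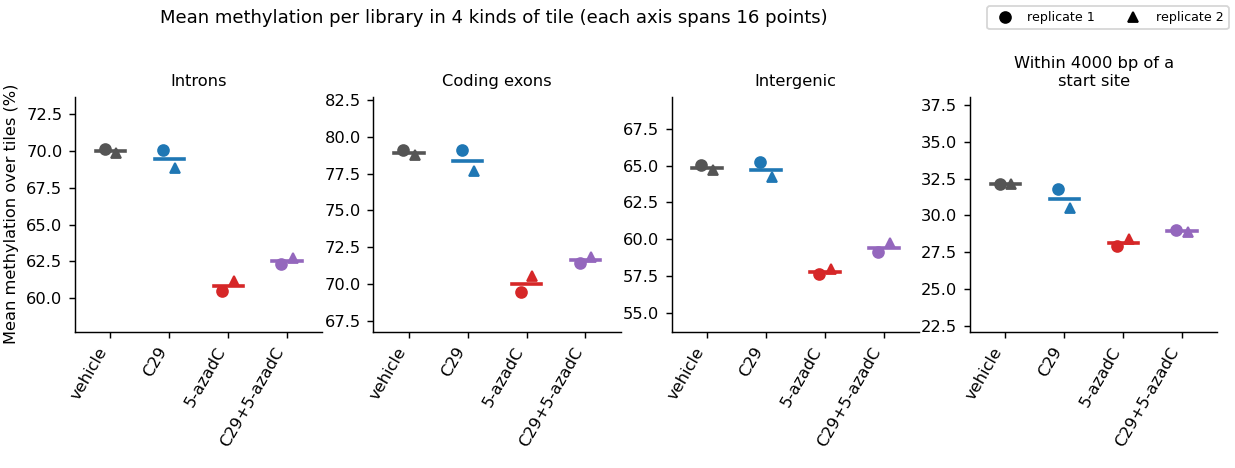
Mean methylation over tiles (y axis, percent) for each library (circle, replicate 1; triangle, replicate 2) and group (line, mean of 2) in introns, coding exons, intergenic tiles and tiles within 4000 bp of a start site; every axis spans 16 points but starts at its own level. In introns the libraries with 5-azadC lie between 60.5 and 62.8% and those without it between 68.8 and 70.1%.

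Introns were next set against the other parts of the genome. Coding exons far from start sites went from a mean of 78.6 to 70.8%, a loss of 7.82 points, and the introns lost 0.195 points more. That difference did not pass (exact permutation test, 4 against 4, p = 0.0571, adjusted p = 0.0696), and it changed sign or passed under other tile definitions. Intergenic tiles lost 6.20 points, and the introns lost 1.82 points more (exact permutation test, p = 0.0286, adjusted p = 0.0364). Tiles within 4000 bp of a start site lost 3.13 points, 4.89 fewer than the introns (exact permutation test, p = 0.0286, adjusted p = 0.0364). As a share of the level without 5-azadC, the losses were 11.5% in introns, 9.94% in exons, 9.57% in intergenic tiles and 9.88% near start sites. Among tiles at 60 to 100% in vehicle replicate 1, which was left out of the values, introns went from 83.9 to 75.2%, exons from 87.5 to 79.3%, intergenic tiles from 81.4 to 74.3% and tiles near start sites from 83.1 to 75.4%. In those tiles the introns lost 1.64 points more than intergenic tiles and 1.06 points more than tiles near start sites (exact permutation test, 4 against 3, p = 0.0571 for each, the smallest it can give).

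Within the introns, the loss in points was larger where more methylation was present at the start. Tiles were binned by vehicle replicate 1, and the values came from the other 7 libraries. The 732 tiles at 0 to 20% lost 3.09 points, the 687 at 20 to 40% 6.32 points, the 945 at 40 to 60% 7.93 points, the 1529 at 60 to 80% 8.64 points and the 3879 at 80 to 100% 8.75 points. In each bin every library with 5-azadC lay below every library without it (exact permutation test, 4 against 3, p = 0.0571, the smallest possible). As a share of the level without 5-azadC the order was the opposite, from 19.7% lost in the lowest bin to 9.83% in the highest. In the highest bin the libraries stood at 89.6% in vehicle replicate 2, 89.6 and 87.8% with C29, 78.8 and 80.01% with 5-azadC, and 80.9 and 81.3% with both.

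Distance from a start site made no difference that the libraries could resolve. The losses were 7.97 points in the 2557 tiles at 4 to 10 kb, 8.27 in the 3155 at 10 to 30 kb, 7.66 in the 1723 at 30 to 100 kb and 7.78 in the 337 beyond 100 kb, where even the lowest library without 5-azadC (66.3%) lay above the highest with it (60.4%). The nearest bin differed from the farthest by -0.194 points (exact permutation test, p = 0.857, adjusted p = 0.857). The first intron, which often holds regulatory elements, was less methylated than later introns: its 1840 tiles stood at 65.4 and 65.2% in vehicle, against 72.4 and 71.9% for the 5307 tiles of later introns, each tile being placed by most of its cytosines. The losses with 5-azadC were 7.92 points in first introns and 8.16 points in later ones, a difference of 0.248 points (exact permutation test, p = 0.4, adjusted p = 0.431).

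The sequence around the CpG was related to the size of the loss. The 2969 tiles with 14 CpGs or fewer lost 8.84 points, the 2359 with 15 to 19 lost 8.05 points, and the 2444 with 20 or more lost 6.98 points. The sparse tiles lost 1.87 points more than the dense ones (exact permutation test, 4 against 4, p = 0.0286, adjusted p = 0.0364), a difference that did not pass with at least 20 reads or 5 cytosines. Of the 34229 intronic cytosines, 3923 had A or T on both sides of the CpG (WCGW), 9761 on 1 side, and 20545 had C or G on both (SCGS), read on the plus strand. The WCGW cytosines stood at 66.6 and 65.8% in vehicle and at 56.2 and 56.99% with 5-azadC, and lost 8.68 points over all libraries. The SCGS cytosines stood at 68.2 and 68.1% in vehicle and at 59.3 and 59.8% with 5-azadC, and lost 7.28 points. WCGW cytosines thus lost 1.39 points more (exact permutation test, p = 0.0286, adjusted p = 0.0364). This did not hold with 1 or more cytosines per tile (a difference of -0.686 points, exact permutation p = 0.171) or with at least 5 reads (-1.253 points, exact permutation p = 0.0571), and without C29 replicate 2 it was -0.883 points.

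Of the SCGS cytosines, 15855 lay in the MspI site CCGG and 4690 outside it. Cytosines in CCGG lost 7.75 points and the 18374 others 7.38 points, a difference of -0.374 points (exact permutation test, p = 0.2, adjusted p = 0.233). The SCGS cytosines outside CCGG lost 5.71 points. Cytosines in repeats, which the reference writes in lower case, were more methylated than others, at 76.6% in both vehicle libraries against 67.5 and 67.3%. The 3896 repeat cytosines lost 6.92 points and the 30333 others 7.63 points, and the difference of 0.706 points did not pass (exact permutation test, p = 0.343, adjusted p = 0.384).

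**Figure D3:**
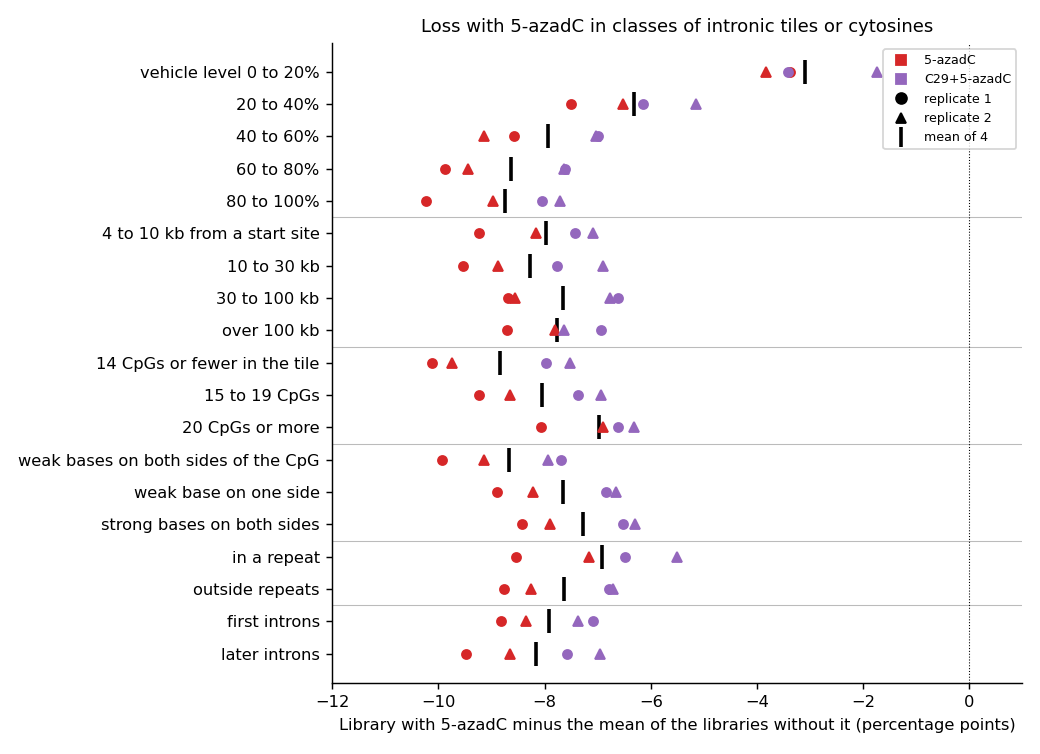
Each library with 5-azadC (points, coloured by group) less the mean of the libraries without it (x axis, percentage points), for classes of intronic tiles or cytosines (rows); the bar is the mean of the 4, weak bases are A and T, strong bases C and G. All points lie below 0, the lowest starting bin is nearest to it at -3.09, and tiles of few CpGs lie farther from it than tiles of many.

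Tile by tile, losses with 5-azadC were spread over many genes. In 771 intronic tiles (9.92%) of 661 genes, all 4 libraries with 5-azadC lay below all 4 without it, against a background of 6.4% of all tiles, and the share was 13.2% in exons, 6.91% in intergenic tiles and 4.57% near start sites. In 7 intronic tiles (0.0901%) all 4 lay above, against 0.336% of all tiles. These counts describe ranks and carry no test of a single tile. The 771 tiles had a median vehicle level of 91.97% against 77.3% for the other intronic tiles. That level is not free of the choice, which required the vehicle libraries to lie above those with 5-azadC. The 771 tiles and the others had nearly the same CpG number (median 16 in each), GC content (47.6 and 47.9%) and distance from a start site (14775 and 15498 bp). They differed in depth, with a median of 231 and 194 reads in a library, summed over cytosines. For C29, 53 intronic tiles (0.682%) lay wholly below and 99 (1.27%) wholly above, against 0.886% and 0.978% of all tiles.

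With the spread between libraries estimated, no single intronic tile passed. The edgeR quasi-likelihood test on methylated and unmethylated counts gave 0 calls at an adjusted p under 0.05 for 5-azadC, C29 or their interaction, and 0% of all tiles. At an unadjusted p under 0.05 it listed 777 intronic tiles (10%) for 5-azadC against 7.03% of all tiles. Of these, 765 (9.84% of intronic tiles) were lower against 6.31% of all tiles, and 12 (0.154%) were higher against 0.726%. The unadjusted counts for C29 and for the interaction were 193 (2.48%) and 244 (3.14%) intronic tiles, against 2.89% and 3.17% of all tiles. On the percentages, limma gave 0 intronic calls for either drug, with 1458 intronic tiles under an unadjusted p of 0.05 for 5-azadC against 11.7% of all tiles, and 506 for C29 against 4.59%. On the logit it gave 0, with 1307 intronic tiles against 11.5% and 417 against 4.86%. As shares of the intronic tiles the 4 limma counts are 18.8, 6.51, 16.8 and 5.37%.

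The logistic likelihood-ratio test, the default of methylKit, takes every read at each cytosine as independent, also where 1 read covers several CpGs. At q under 0.01, with q by Benjamini-Hochberg over all tiles, and at least 25 points it gave many calls. 5-azadC against vehicle gave 768 intronic tiles, 709 lower and 59 higher, against 6.27% of all tiles, of which 5.66% were lower and 0.605% higher. The combination gave 755, 660 lower and 95 higher, against 6.03% of all tiles, 5.19% lower and 0.847% higher. C29 gave 352, 188 lower and 164 higher, against 3.32% of all tiles, 1.95% lower and 1.37% higher. As shares of the intronic tiles these were 9.88, 9.71 and 4.53%. The 2 treated libraries did not overlap the 2 vehicle libraries in 685, 625 and 290 of them, against 5.42, 5 and 2.69% of all tiles. The 3 comparisons share the vehicle libraries. With methylKit's overdispersion-corrected F test there were 0 calls in each, with 698, 555 and 331 intronic tiles at an unadjusted p under 0.05, against 6.83, 5.83 and 4.26% of all tiles.

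The 15 tiles with the largest differences between libraries with and without 5-azadC, among those with at least 50 reads, summed over cytosines, in every library and no overlap between the 4 and 4 libraries, lay in 15 genes and held 3 or 4 cytosines each. Since they were picked for that contrast, their values are a description, and their lowest adjusted p in edgeR was 0.695. In Gpr45, which encodes an orphan G protein-coupled receptor, the tile at chr1:43005001-43006000 stood at 68.1 and 96.5% in vehicle, 96.5 and 69.1% with C29, 44.6 and 18.1% with 5-azadC, and 29.3 and 43.1% with both. The means were 82.6% ± 16.1 (SD, n = 4) without 5-azadC and 33.8% ± 12.5 (SD, n = 4) with it, a difference of -48.8 points. The libraries without 5-azadC were split in the same way in vehicle and with C29, one near the top of the scale and one well below it.

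In Unc5b, a receptor for the guidance cue netrin, the tile of intron 1 (chr10:60826001-60827000) stood at 72.4 and 69.6% in vehicle, 76.6 and 80.6% with C29, 37.9 and 40.3% with 5-azadC, and 33.7 and 8.18% with both. The 4 libraries without 5-azadC were close together, at 74.8% ± 4.85 (SD, n = 4), and those with it stood at 30.0% ± 14.8 (SD, n = 4). All 4 measured cytosines of the Unc5b sequence above were lower with 5-azadC, and their means went from 78.6 to 15.9%, 89.5 to 49.1%, 70.6 to 44.2% and 62.2 to 23.3%. In Tns3, which encodes tensin 3, a protein of focal adhesions, the intron 1 tile (chr11:8626001-8627000) stood at 73.7 and 48.8% in vehicle, 50 and 49.2% with C29, 15.2 and 15.3% with 5-azadC, and 23.0 and 14.4% with both. Its libraries with 5-azadC stood at 17.0% ± 4.03 (SD, n = 4), the smallest SD with 5-azadC among the 15 tiles.

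In Tpst2, a Golgi enzyme that adds sulfate to tyrosines, the intron 1 tile (chr5:112281001-112282000) stood at 23.5 and 38.7% in vehicle, 45.1 and 65.7% with C29, 0 and 14.9% with 5-azadC, and 0 and 0% with both. No methylated read was seen in 3 of the 4 libraries with 5-azadC, where at most 57, 51 and 17 reads covered any of the 3 cytosines, and there a count of 0 allows up to 5.26, 5.88 and 17.6%. The first of its 3 CpGs, in the CCGG site, read 0% in 6 of the 8 libraries, and the 2 others carried the difference, at means of 65.2 and 52.8% without 5-azadC and 5.05 and 2.93% with it. In Cntnap2, a neurexin-like adhesion molecule with very long introns, the intron 3 tile lay 121255 bp from a start site and stood at 94.2 and 100% in vehicle, 81.4 and 86.7% with C29, 57.2 and 66.5% with 5-azadC, and 44.4 and 17.8% with both. The combination libraries were the lowest and farthest apart.

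The other 10 tiles lay in Chpt1, which makes phosphatidylcholine, Tyw3, a tRNA-modifying enzyme, Gfpt1, the rate-limiting enzyme of hexosamine synthesis, Appl2, an endosomal adaptor, Trio, Fry, Pcsk5, a proprotein convertase, Suclg2, a subunit of succinate-CoA ligase, Rasa3, a GTPase-activating protein for Ras, and Lrmda. Their differences ranged from -45.3 points in Chpt1 to -38.0 in Lrmda. In Suclg2 the 4 libraries without 5-azadC were at 99.0 to 100%, while those with 5-azadC were at 75.6 and 32.1% and those with both at 39.5 and 97.2%. In Trio the spread lay on the other side, with 0 to 10.7% in the libraries with 5-azadC and 42.1, 12.4, 95.2 and 45.0% in those without it. In Appl2 the lower vehicle library, at 64.8%, lay just above the highest library with 5-azadC, at 63.0%.

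**Figure D4:**
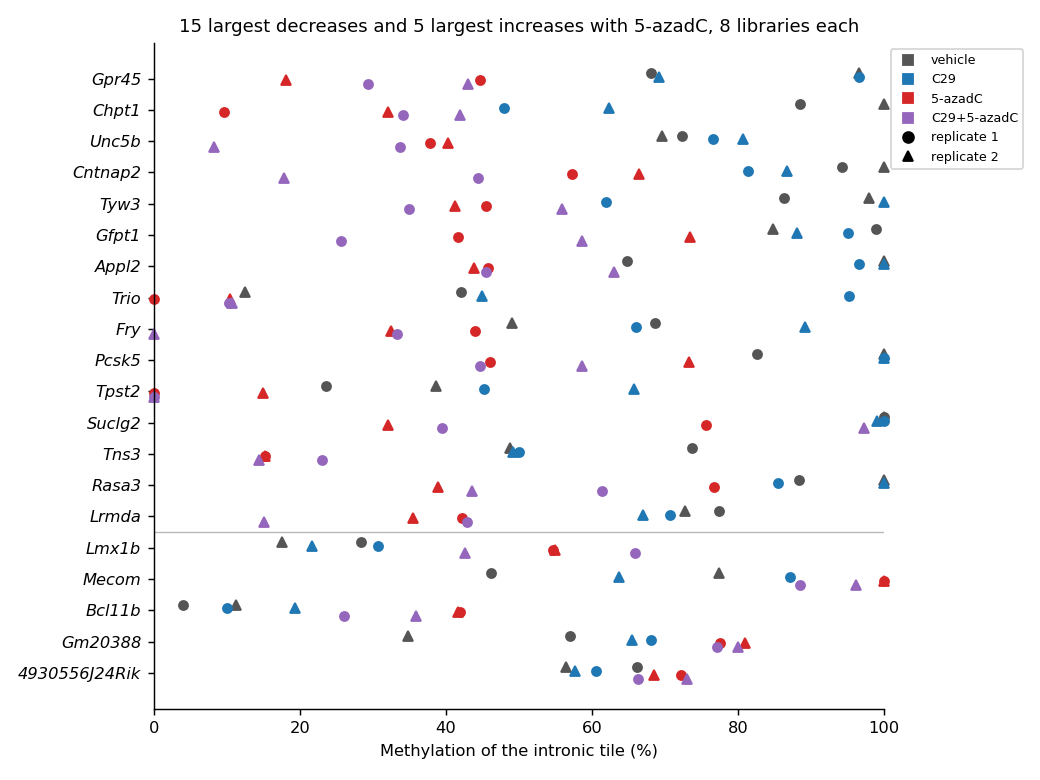
Methylation (x axis, percent) of the 15 intronic tiles with the largest decreases (above the line) and the 5 with the largest differences above 0 (below it), by gene (rows); each point is a library, coloured by group, with replicates as circles and triangles. The groups with and without 5-azadC do not overlap in any row, which is how the rows were chosen. Libraries of 1 group can lie far apart, as at 39.5 and 97.2% in Suclg2 with both drugs.

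In the other direction, 7 tiles met the same conditions, of which the 5 with the largest differences are described. In Lmx1b, a LIM homeodomain transcription factor, the intron 2 tile (chr2:33575001-33576000) stood at 28.4 and 17.6% in vehicle, 30.7 and 21.6% with C29, 54.6 and 55.0% with 5-azadC, and 65.9 and 42.6% with both. Its first 4 CpGs had means of 6.90 to 41.2% without 5-azadC and 70.3 to 79.5% with it, whereas the cytosine at 33575694 went the other way, from 59.95 to 25.1%. In Bcl11b, a zinc-finger transcription factor of T cell and mammary development, the intron 3 tile (chr12:107928001-107929000) stood at 3.97 and 11.2% in vehicle, 9.95 and 19.3% with C29, 42.0 and 41.6% with 5-azadC, and 26.1 and 35.9% with both. Its first 4 CpGs were at 0 to 12.7% in the 4 libraries without 5-azadC and at 41.9 to 100% in those with it. Of its other 4 cytosines, those at 107928527 and 107928731 had higher means with 5-azadC, 26.3 against 15.4% and 20.5 against 0%, and those at 107928519 and 107928704 went the other way, at 3.53 against 16.7% and 26.6 against 46.0%. Another tile of the same Bcl11b intron, chr12:107962001-107963000, went the other way, at 85.6% ± 8.64 (SD, n = 4) without it and 54.2% ± 14.7 (SD, n = 4) with it. In Mecom, a zinc-finger oncogene, the tile was higher by 27.6 points, and by 31.1 points with its cytosines weighted equally. The tiles in the readthrough gene Gm20388 and in 4930556J24Rik had differences of 22.6 and 9.76 points over summed reads but of 4.46 and 3.41 points with their cytosines weighted equally, and with at least 20 reads the Gm20388 tile had a difference of -0.243 points. Their cytosines differ in level and take different numbers of reads from each library, so these 2 are not given as increases. Weighted in the same way, the Lmx1b and Bcl11b tiles had differences of 26.7 and 36.1 points, and the 15 decreases above ran from -48.8 to -30.4 points.

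The tiles that differed most with C29, by the same conditions, were likewise picked for that contrast, and all had an adjusted p of 1 in edgeR. In Acacb, the mitochondrial acetyl-CoA carboxylase that controls fatty acid oxidation, the intron 1 tile (chr5:114152001-114153000) stood at 3.13 and 16.4% in vehicle, 61.2 and 86.0% with C29, 20 and 3.80% with 5-azadC, and 32.5 and 71.01% with both. The libraries with C29 stood at 62.7% ± 22.5 (SD, n = 4) and those without it at 10.8% ± 8.64 (SD, n = 4). In Nrxn3, a presynaptic neurexin, the intron 15 tile stood at 44.8 and 29.6% in vehicle, 89.7 and 81.0% with C29, 58.6 and 55.7% with 5-azadC, and 84.3 and 72.2% with both. The C29 libraries of Nrxn3 varied least among the 5 higher tiles, with an SD of 7.32 points, and with its cytosines weighted equally the difference was 23.1 points in place of 34.6. Cpeb1, a regulator of mRNA polyadenylation, Zbtb7c and Tet2 were the other 3, higher by 38.8, 44.4 and 34.7 points. The Tet2 tile, in intron 1 of the methylcytosine dioxygenase gene, stood at 15.9 and 0% in vehicle and 26 and 28% with C29. It stood at 0 and 13.8% with 5-azadC and 36.7 and 78.0% with both, from 50 to 340 reads summed over cytosines. In vehicle replicate 2 at most 14 reads covered any of its cytosines, so that 0 allows up to 21.4%. In 5-azadC replicate 1 it was at most 61 reads, which allow up to 4.92%. The 78.0% came from the library with 50 reads. In the opposite direction, Chit1, the macrophage chitinase, stood at 87.9 and 86.3% in vehicle, 61.5 and 8.57% with C29, 67.2 and 68.1% with 5-azadC, and 17.0 and 35.3% with both. The tiles in Ankrd55, the cadherin gene Cdh4, Ubac2 and Ttc28 had differences of -36.9, -28.3, -27.7 and -25.9 points with C29.

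Tiles were also chosen by their number of cytosines at either end of the scale in vehicle, which leaves the 6 treated libraries free of the choice. Of the tiles under 5% in both vehicle libraries, those with most cytosines lay in Nfix, Prdm2, E130114P18Rik, Gli2 and Gm20388, with 17 to 28 cytosines each. In Gli2, a transcription factor of the Hedgehog pathway, the 17 cytosines together read 0.144 and 0% in vehicle, 0.698 and 0% with C29, 0.0674 and 1.56% with 5-azadC, and 0 and 0% with both, from 1008 to 2007 reads a library summed over these cytosines. Where it read 0, at most 114 to 194 reads covered any 1 cytosine, and there a count of 0 allows up to 2.63 to 1.55%. In Prdm2, a histone methyltransferase, 6 of the 8 libraries read 0%, where the 39 to 115 reads at the most covered cytosine allow up to 7.69 to 2.61%, and those with 5-azadC alone read 1.25 and 0.0754%. In Nfix, a nuclear factor I gene, 5-azadC replicate 1 and C29+5-azadC replicate 1 stood apart, at 19.5 and 17.1%, against 0.493 to 9.15% in the other 6. Over all 185 tiles under 5% in both vehicle libraries, whose vehicle means of 0.717 and 0.398% follow from that choice, the other 6 libraries had means of 3.95 to 5.94%, with 5.84 and 5.94% for C29 alone and 5.01 and 3.95% for 5-azadC alone.

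At the other end, the tiles over 90% in both vehicle libraries with most cytosines lay in Tomm34, Slain2, Lrp5, Prune2 and Epb41l1. In all 5, both C29 libraries, which that choice left free, lay above every library with 5-azadC. The vehicle libraries also lay above those with 5-azadC, but they are high by that choice, and the differences given next include them. Over tiles of every level, every library with 5-azadC lay below every library without it in 9.92% of intronic tiles and 6.4% of all tiles. Those shares are no like background for the 5 tiles. How often other tiles over 90% in vehicle met the C29 condition was not counted. In Tomm34, a cochaperone of mitochondrial import, 17 cytosines read 93.4 and 95.7% in vehicle, 95.4 and 98.4% with C29, 76.5 and 90.4% with 5-azadC, and 81.6 and 91.1% with both, a difference of -10.8 points. In Lrp5, a coreceptor for Wnt ligands, the values were 95.3 and 93.7%, 96.2 and 94.3%, 84.3 and 86.8%, and 87.2 and 91.8% in the same order, a difference of -7.35 points. In Slain2, which acts at growing microtubule ends, they were 99.0 and 100%, 96.4 and 97.8%, 93.2 and 93.7%, and 95.9 and 94.6%, a difference of -3.96 points. The tiles of Prune2 and Epb41l1 differed by -9.29 and -5.98 points. The lowest adjusted p of the 5 in edgeR was 0.699. Over the 1080 tiles above 95% in both vehicle libraries, at 99.0 and 99.3% there, the means were 95.01 and 93.4% with C29, 84.6 and 86.6% with 5-azadC, and 86.9 and 87.9% with both, so that the groups with 5-azadC lay below the C29 group as well.

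Gene by gene, the loss was broad. Of the 336 genes with 5 or more intronic tiles, 321 had a median tile difference below 0 with 5-azadC and 15 above, and the medians had an interquartile range from -10.2 to -4.42 points. They ran from -17.0 points in Pik3ap1, an adaptor of PI3-kinase, to 6.05 points in Tox2, each with 5 tiles. For C29, 150 of these genes had a median below 0 and 186 above. Most tiles fell to Gm20388, a readthrough gene of 4434882 bp on chromosome 8 that spans other genes, with 104 tiles whose mean went from 51.5 to 45.2%. Next came Zfhx3, a large homeobox transcription factor, with 40 tiles at 58.4 and 66.0% in vehicle and 55.4 and 53.4% with 5-azadC. Of the 40, 32 were lower on average and 5 lay wholly lower. Wwox, a gene at a common fragile site, had 39 tiles, which stood at 77.9 and 73.8% in vehicle and 69.1 and 69.0% with 5-azadC. Gse1 with 32 tiles, Cdh13 (T-cadherin) with 30 and Camta1, a calmodulin-binding transcription activator, with 26 had mean differences of -6.22, -5.34 and -10.01 points. Tiles of 1 gene are neighbours on the same DNA and are not replicates.

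Gene lists drawn up for the tumor and the drugs were then read in the same way, beside a median of -7.53 points and 9.92% of tiles wholly lower over all intronic tiles. The tile of largest difference was named in 6 of the 7 lists, and others were named after their values were seen because the groups did not overlap. The list of DNA methylation enzymes and methionine-cycle genes had intronic tiles for only 7 of its 30 genes, 11 tiles in all. Of these, 9 were lower on average with 5-azadC, 2 lay wholly lower, none wholly higher, and the median was -8.11 points. The largest difference was in Tet2, a methylcytosine dioxygenase. In Dnmt3b, the de novo methyltransferase, the intron 20 tile read 100% in all 4 libraries without 5-azadC and 94.4, 77.4, 93.8 and 94.4% in those with it. In Dnmt1, the maintenance enzyme and the target of the drug, the intron 1 tile varied widely between the vehicle libraries, with 1.08 and 66.7% in vehicle, 48.1 and 33.9% with C29, 28.6 and 23.1% with 5-azadC, and 22.6 and 1.695% with both. In Tet2, neighbouring tiles of intron 1 differed, since chr3:133533001-133534000 was wholly lower with 5-azadC (53.6% ± 3.46 without, 32.7% ± 12.3 with, SD, n = 4) while the next tile, described above with C29, was not.

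The ERR receptors and their cofactors had 34 tiles in 7 genes, of which 28 were lower on average, 3 wholly lower and none wholly higher, with a median of -9.03 points. In Esrrg, which encodes ERRγ, a relative of the receptor that C29 inhibits, the intron 3 tile at chr1:188102001-188103000 stood at 54.0 and 65.6% in vehicle, 41.3 and 51.0% with C29, 15.4 and 37.1% with 5-azadC, and 19.7 and 13.8% with both. A further Esrrg tile at chr1:187630001-187631000 was also wholly lower, at 68.5% ± 4.97 without and 47.0% ± 6.73 with 5-azadC (SD, n = 4). ErbB signalling genes had 60 tiles in 20 genes, 53 lower on average and 9 wholly lower, with a median of -8.78 points. The largest difference was in intron 1 of Gab1, a docking protein of receptor kinases, at 77.3% ± 19.1 without and 45.8% ± 7.07 with 5-azadC (SD, n = 4), with overlap. In the kinase gene Src the intron 2 tile stood at 64.4 and 75.7% in vehicle, 83.6 and 79.4% with C29, 45.8 and 49.0% with 5-azadC, and 54.1 and 56.0% with both. In Camk2b, a subunit of a calmodulin-dependent kinase, the intron 2 tile was at 86.4 to 100% in the libraries without 5-azadC and at 56.0 to 69.4% in those with it.

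Mammary lineage factors had 34 tiles in 11 genes, 28 lower on average, 1 wholly lower and 1 wholly higher, with a median of -8.66 points. The largest difference was that of the overlapping Bcl11b tile above. The wholly lower tile was in intron 2 of Esr1, the estrogen receptor gene, which read 100% in all 4 libraries without 5-azadC and 82.1, 90.7, 59.7 and 88.2% in those with it, and the wholly higher one was the Bcl11b tile above. Tumor suppressors and fragile-site genes had 163 tiles in 22 genes, with 122 lower on average, 13 wholly lower and a median of -5.40 points. In Magi2, a scaffold protein, the intron 1 tile stood at 95.4% ± 8.38 without and 55.2% ± 34.8 with 5-azadC (SD, n = 4), with overlap. Sufu, a negative regulator of the Hedgehog pathway, read 100% in all 4 libraries without 5-azadC and 77.7, 53.6, 80.9 and 45.2% in those with it. Long-intron transcription factors had 210 tiles in 36 genes, 171 lower on average and 18 wholly lower, with a median of -8.02 points. In Tcf7l1, an effector of Wnt signalling, the intron 3 tile stood at 58.0% ± 30.7 without and 20.2% ± 8.22 with 5-azadC (SD, n = 4), with overlap. In Arid1b, a chromatin remodeling subunit, the intron 4 tile stood at 96.6% ± 5.08 without 5-azadC and 69.0% ± 14.1 with it (SD, n = 4). Synaptic and adhesion genes had 261 tiles in 39 genes, 215 lower on average and 24 wholly lower, with a median of -8.41 points, and the largest difference was that of Cntnap2 above. In Agap1, a GTPase-activating protein of endosomes, the intron 1 tile stood at 94.2% ± 11.5 without 5-azadC and 58.5% ± 3.29 with it (SD, n = 4). No tile of the 7 lists passed the edgeR test for 5-azadC.

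**Figure D5:**
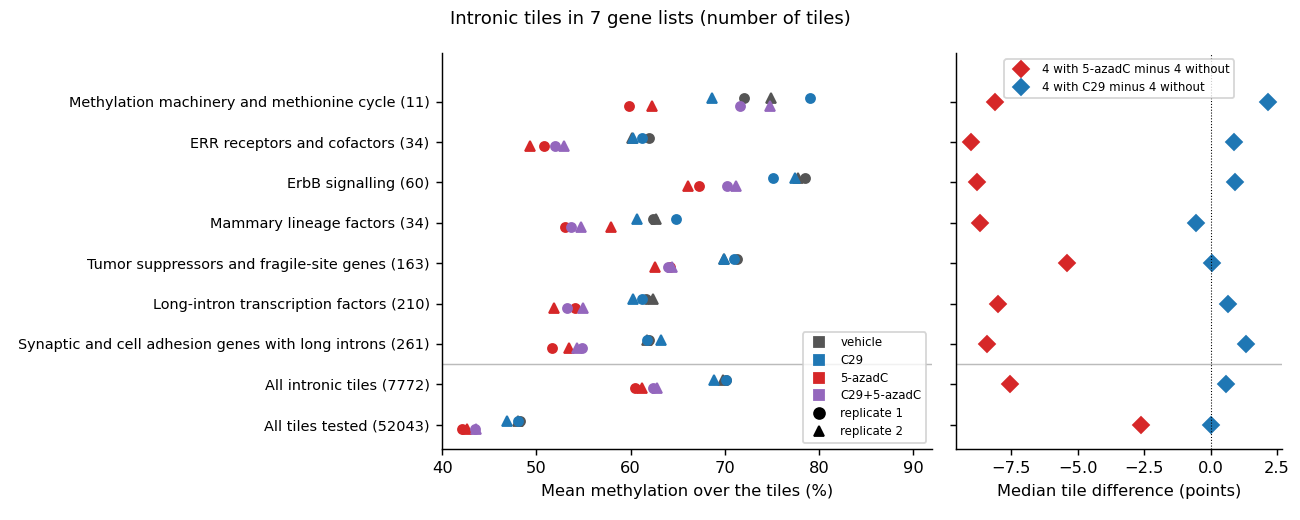
Left, mean methylation over the intronic tiles of each gene list (x axis, percent) in each library (coloured by group); right, the median tile difference with and without 5-azadC (red) and C29 (blue), in percentage points, with the number of tiles in brackets. The red medians lie between -9.03 and -5.40 for the lists, beside -7.53 for all intronic tiles and -2.61 for all tiles.

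For C29 the list medians lay between -0.53 points in mammary lineage factors and 2.14 points in methylation and methionine-cycle genes, beside 0.58 for all intronic tiles. In the latter list the 11 tiles averaged 72.0 and 74.9% in vehicle, 79.1 and 68.6% with C29, 59.8 and 62.3% with 5-azadC, and 71.6 and 74.8% with both. The combination libraries were at the level of vehicle and above 5-azadC alone, in a list of few tiles that include the Tet2 and Dnmt1 tiles above.

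For the interaction of the drugs, limma on the percentages called 2 intronic tiles at an adjusted p under 0.05, of 5 called among all 52043 tiles (0.00961%), that edgeR did not call (adjusted p = 1). On the logit, limma called 0 tiles for the interaction, and its lowest adjusted p among intronic tiles was 0.554. In Maml3, a coactivator of Notch, the intron 2 tile read 66.7% in both vehicle libraries and 100% in the other 6 libraries (limma adjusted p = 0.01004). In Clec2g, a C-type lectin, the intron 1 tile read 100 and 99.2% in vehicle, 100% in both C29 libraries, 100 and 98.9% with 5-azadC, and 63.6 and 65.4% with both (limma adjusted p = 0.0349). The Maml3 tile held 3 cytosines and only 30 to 96 reads a library summed over cytosines, and the Clec2g tile 4 cytosines and 80 to 208 reads.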

How the data were processed

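Reduced representation bisulfite sequencing was performed on 8 libraries, 2 per group. Per the labels, the authors' processing notes name FastQC 0.11.8, Trim Galore 0.4.1, Bismark 0.20.0, methylKit 1.7.0 and the build mm10 (GRCm38). The files deposited by the authors give, for each cytosine, the methylated fraction and the read count covering it, with no further normalization. Methylated reads were recovered as fraction times count and rounded to whole numbers.

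Cytosines on the 19 autosomes with at least 10 reads in all 8 libraries were assigned to classes with GENCODE M21, as described in the report, and summed into 1000 bp tiles of at least 3. Class means were compared between the 4 libraries with and the 4 without a drug by two-sided exact permutation tests, whose smallest p is 0.0286, with Benjamini-Hochberg adjustment over 28 tests. Tiles were tested over all 52043 tiles by edgeR 4.0.16 quasi-likelihood on methylated and unmethylated counts and by limma 3.58.1. Added to these was a logistic likelihood-ratio test as in methylKit (q under 0.01, at least 25 points). Adjusted p and q were by Benjamini-Hochberg over all tiles, also for the logistic test. The tests were checked on simulated data in which 200 of the 52043 tiles were shifted by 35 points. Extra spread between libraries was set by an overdispersion of 0.02 (moderate) or 0.08 (strong), values not fitted to these libraries. edgeR and limma were checked for 5-azadC only, with 4 against 4 libraries, and the logistic and F tests with 2 against 2. Without extra spread the logistic test found all shifted tiles and called no other tile. With moderate spread it also called tiles that had not been shifted, and with strong spread such false calls outnumbered the true ones. edgeR made no false call, found part of the shifted tiles at moderate spread and none at strong spread, limma made false calls at moderate spread and none, true or false, at strong spread, and the F test found none, so an absence of calls from these tests does not show an absence of change. Sequences come from the RefSeq release of GRCm38. The members and gene lists were chosen with earlier results of these data known. Named tiles are the 15 largest decreases and 5 largest increases in percent of summed reads with 5-azadC, and the 5 largest each way with C29, among tiles that had 50 summed reads or more in all libraries and no overlap between the 4 and 4. Added to them are the 5 tiles with most cytosines among those under 5% and over 90% in both vehicle libraries, the 6 genes with most tiles, and tiles of 7 gene lists. Alternatives were other minimums of reads and cytosines, tile lengths, distances, summed strands, other weightings, a replicate block and leaving out each library. Python 3.11.15, NumPy 2.4.6, SciPy 1.17.1, pandas 2.3.3 and R 4.3.3 were used.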

Additional observations from a re-analysis of the deposited data

Results flagged for a closer look

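Some differences between libraries with and without C29 pointed in opposite directions without and with 5-azadC, with no overlap of libraries on either side. In the Chpt1 tile, C29 differed from vehicle by -39.12 points and the combination from 5-azadC alone by 17.24 points (edgeR interaction, adjusted p = 1, unadjusted 0.0683). In the Unc5b tile the differences were 7.635 and -18.16 points (edgeR interaction, adjusted p = 1, unadjusted 0.201). In the Slain2 tile they were -2.335 and 1.797 points and in the Epb41l1 tile 3.351 and -3.04 points (edgeR interaction, adjusted p = 1 for both, unadjusted 0.149 and 0.344). No tile passed that test.

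The same held for means over classes, where the difference of the differences was not tested. Without 5-azadC the gap was very small in some classes. C29 replicate 1 and the lower vehicle library stood at 65.15 and 65.16% in first introns, 67.91 and 67.93% at the highest density, and 68.11 and 68.12% at SCGS cytosines. There the C29 difference came mostly from C29 replicate 2, at 63.83% in first introns. Near start sites the nearest libraries were at 31.76 and 32.14%. First introns differed by -0.77 points without and 1.365 points with 5-azadC. Tiles of the highest CpG density differed by -0.995 and 1.025 points. Cytosines outside repeats differed by -0.875 and 1.755 points. SCGS cytosines differed by -1.005 and 1.75 points, those of them outside CCGG by -1.545 and 1.695 points, and all cytosines outside CCGG by -0.585 and 1.76 points. Tiles near start sites differed by -1.02 and 0.785 points. These classes overlap and share their libraries.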

How the results depend on the processing

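The loss of intronic methylation with 5-azadC kept its direction under every alternative and ranged from -8.328 to -7.702 when each library was left out in turn. With the replicate number as a block, the smallest possible exact p is 0.0556, so no comparison could pass, and the values were -8.015 for introns, -1.816 against intergenic tiles, -4.889 against tiles near start sites, -1.868 for CpG density and -1.391 for the sequence beside the CpG. The sources used here do not say what libraries with the same number share. Over 7772 tiles, their deviations from the group means correlated by -0.0320 to 0.0134 between groups, and a small shift common to them was not tested. The block left the logistic calls at 350, 767 and 754 for C29, 5-azadC and both, and edgeR at 0.

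The comparison of introns with exons had no stable sign. It was 0.0107 with at least 20 reads, 0.1439 with at least 5 cytosines per tile and 0.001852 with all reads pooled. It passed (exact permutation p = 0.0286) at -0.3147 with 2000 bp from start sites, -0.3481 with 500 bp tiles, -0.2115 with strands summed, -0.221 without the 0.1% of highest coverage, -0.4874 as a mean over cytosines and, chosen after seeing the data, -0.0153 as a ratio. Also chosen after seeing the data, the ratio to tiles near start sites was -0.04012 (exact permutation p = 0.0571), and tiles at 60 to 100% in vehicle replicate 1 gave -1.64 against intergenic tiles and -1.057 against tiles near start sites, where 4 against 3 libraries cannot pass. The sequence comparison was -1.253 with at least 5 reads, -0.686 with 1 or more cytosines and -1.642 with 5 or more, and the density comparison -2.13 with 20 reads and -2.745 with 5 cytosines, none of which passed. First against later introns became -0.009367 with 20 reads and -0.04076 with strands summed. The distance comparison became 0.1163 with 500 bp tiles, and with a minimum distance of 10000 bp its nearest bin was empty. The cause of these changes was not tested.

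Logistic calls for C29, 5-azadC and both numbered 2288, 3858 and 3515 at 10 points, 113, 261 and 236 with 20 reads, 3132, 4861 and 4664 with 1 or more cytosines, 50, 133 and 108 with 5 or more, and 0 each by the F test. The minimums change how many tiles are tested. For the interaction, limma called 2 intronic tiles on percentages and 0 on the logit. The Gm20388 difference became -0.2426 with 20 reads.

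Leaving out each library in turn gave, from lowest to highest, 0.2689 to 0.894 for C29 over 8 libraries, -1.164 to 0.0867 for C29 against vehicle, -9.478 to -8.792 for 5-azadC and -7.633 to -7.234 for both against vehicle, -7.52 to -6.27 for both against C29, 1.358 to 2.044 for both against 5-azadC, and 1.615 to 2.865 against the sum of the single drugs. C29 against vehicle changed sign to 0.0867 without C29 replicate 2. The differences from exons ranged from -0.2883 to -0.1021, from intergenic tiles from -1.904 to -1.729 and from tiles near start sites from -5.019 to -4.758. Density ranged from -2.064 to -1.671, sequence from -1.9 to -0.8827, repeats from 0.3693 to 1.043, first against later introns from 0.01978 to 0.4753 and the highest starting bin from -9.341 to -8.25. Distance ranged from -1.031 to 0.6426 and was above 0 without vehicle replicate 1 (0.5185), C29 replicate 1 (0.6426) or C29+5-azadC replicate 1 (0.06665). Logistic calls, which then compare 1 library with 2 and rest on reads alone, ranged from 589 to 779 for C29, 1042 to 1355 for 5-azadC and 994 to 1231 for both, and edgeR stayed at 0. With 4 against 3 libraries the smallest exact p is 0.0571, so lost calls say nothing of stability.

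Of the 7772 intronic tiles, 3345 held exactly 3 cytosines, and the 2 libraries of a group differed by a median of 7.60 to 11.2 points per tile.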
